A study of Mus musculus with 12 samples.

Results

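Gpr183, also called EBI2, is a G protein-coupled receptor for oxysterols, and Ch25h, Cyp7b1, Hsd3b7 and Cyp27a1 encode the enzymes that make, convert or remove its ligands. These 5 genes were taken by symbol from the 55401 genes of the deposited table. Gpr183 was selected on its log2 difference between IRX3_WT and GFP, where it was low with IRX3_WT, so its values in comparisons that include GFP or IRX3_WT are given with their error and without a test, and the enzymes were added as its ligand pathway. Of the 5 genes, 3 (Gpr183, Ch25h and Cyp27a1) were among the 13369 that passed the filter on low values, a normalized count of 10 or more in 3 or more libraries. Gpr183 reached 10 in all GFP and all IRX3_S389A libraries, in 1 IRX3_WT library and in no IRX3_S361A library. RNA-seq covered 12 libraries, 3 per group, of macrophages grown from bone marrow of Irx3-/- mice on the C57BL/6J background for 7 days in 20 nM M-CSF, a macrophage growth factor. All cells carried the Irx3 deletion, were infected with adeno-associated virus (AAV) and received 100 ng/ml lipopolysaccharide (LPS), a bacterial ligand of Toll-like receptors, for 4 h. The control virus delivered GFP, and the others delivered IRX3 in its wild-type form (IRX3_WT) or with a serine replaced by alanine, in the constructs IRX3_S361A and IRX3_S389A. No unstimulated cells and no uninfected cells are among these groups, and the labels do not say whether the 3 libraries of a group came from separate mice or cultures, so p-values measure only the spread between libraries.

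In the textbook pathway, Ch25h, which is strongly induced by LPS and interferon in macrophages, hydroxylates the side chain of cholesterol, and Cyp7b1 adds another hydroxyl group to give the most potent Gpr183 ligand. Hsd3b7 oxidises that ligand and ends its activity, and Cyp27a1, a mitochondrial enzyme, makes a related side-chain oxysterol. Gpr183 couples to inhibitory G proteins and directs the migration of B cells, T cells, dendritic cells and macrophages along gradients of its ligand.

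The delivered gene was checked first. Irx3 was at 0 in all 3 GFP libraries, at 165, 170 and 196 normalized counts with IRX3_WT, at 324, 364 and 358 with IRX3_S361A, and at 194, 203 and 165 with IRX3_S389A. A normalized count is the read count of a gene divided by 1 size factor per library, and a difference below is one of log2(normalized count + 1). IRX3_S361A libraries held more Irx3 RNA than IRX3_WT libraries by 0.97 (SE 0.19, limma adjusted p = 0.000197), so the substitution and the amount of transcript cannot be told apart for that construct. Recovered reads ran from 17149058 to 20108002 per library. All 10 macrophage markers were expressed, with summed levels of 368308 to 437848 normalized counts per library. With totals of all genes made equal between libraries, the median difference of all genes from GFP moved by -0.18 for IRX3_WT, -0.11 for IRX3_S361A and -0.17 for IRX3_S389A, and results that this scaling changed are named beside their values.

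The windows upstream of the start sites are shown for the receptor, for the most abundant ligand enzyme, and for Gpr18, the adjacent receptor gene that moved the other way. Each is the 250 bases before the RefSeq start in GRCm38.p6, written 5′ to 3′ on the strand of the gene, with matches to the searched motifs in capitals. Gpr183 is at chr14:121965194-121965443 on the minus strand, Ch25h at chr19:34475149-34475398 on the minus strand, and Gpr18 at chr14:121915889-121916138 on the minus strand.
Gpr183: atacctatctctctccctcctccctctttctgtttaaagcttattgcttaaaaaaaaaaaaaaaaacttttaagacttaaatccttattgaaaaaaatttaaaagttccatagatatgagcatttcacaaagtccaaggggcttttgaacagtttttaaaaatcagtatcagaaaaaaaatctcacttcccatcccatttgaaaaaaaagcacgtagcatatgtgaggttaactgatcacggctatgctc
Ch25h: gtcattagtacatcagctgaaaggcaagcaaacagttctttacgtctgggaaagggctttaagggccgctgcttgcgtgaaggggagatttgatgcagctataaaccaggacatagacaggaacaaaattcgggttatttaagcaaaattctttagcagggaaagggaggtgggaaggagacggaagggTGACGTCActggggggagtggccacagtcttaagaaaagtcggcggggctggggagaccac
Gpr18: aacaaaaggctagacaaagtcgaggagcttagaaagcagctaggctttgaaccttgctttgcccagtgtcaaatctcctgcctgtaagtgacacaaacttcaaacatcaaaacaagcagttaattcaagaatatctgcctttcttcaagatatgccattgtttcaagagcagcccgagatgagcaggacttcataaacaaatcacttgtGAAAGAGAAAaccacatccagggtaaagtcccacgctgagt
The Gpr183 window was 32.0% GC with a run of 17 A, against 50.4% GC for Ch25h and 42.4% for Gpr18. Motifs were searched on both strands: ACANNTGT (Iroquois homeobox form), the interferon response form (a repeat of TTTC with any 2 bases between), TGANTCA (AP-1), a kappaB form, CACGTG (E-box) and TGACGTCA (cAMP response element), of which the last was added after the sequences had been seen. The Gpr183 window held no match, which says only that these letters are not in this window. The Ch25h window held TGACGTCA once, beginning 61 bases before the start, a form present in 1.55% of 32851 RefSeq windows of the same length. The Gpr18 window held the interferon response form once, as GAAAGAGAAA beginning 41 bases before the start, and 2.98% of all windows held that form. Among the members with an entry (Gpr183, Ch25h, Hsd3b7 and Cyp27a1), no window held the Iroquois form, which 6.31% of all windows held. A match is a description of letters and not of binding, and no window says anything about regulation from introns or distant elements.

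Gpr183 RNA was higher in every control library than in any library that received IRX3. The GFP libraries held 156, 185 and 210 normalized counts. The IRX3_WT libraries held 7.88, 3.12 and 17.1, the IRX3_S361A libraries 5.06, 9.94 and 9.05, and the IRX3_S389A libraries 20.7, 11.1 and 15.2. The lowest GFP library thus lay above all 9 IRX3 libraries. Group means were 184 ± 27.1 (SD, n = 3) with GFP, 9.35 ± 7.09 with IRX3_WT, 8.02 ± 2.60 with IRX3_S361A and 15.7 ± 4.81 with IRX3_S389A, which left 5.09%, 4.36% and 8.52% of the GFP mean.

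**Figure D1:**
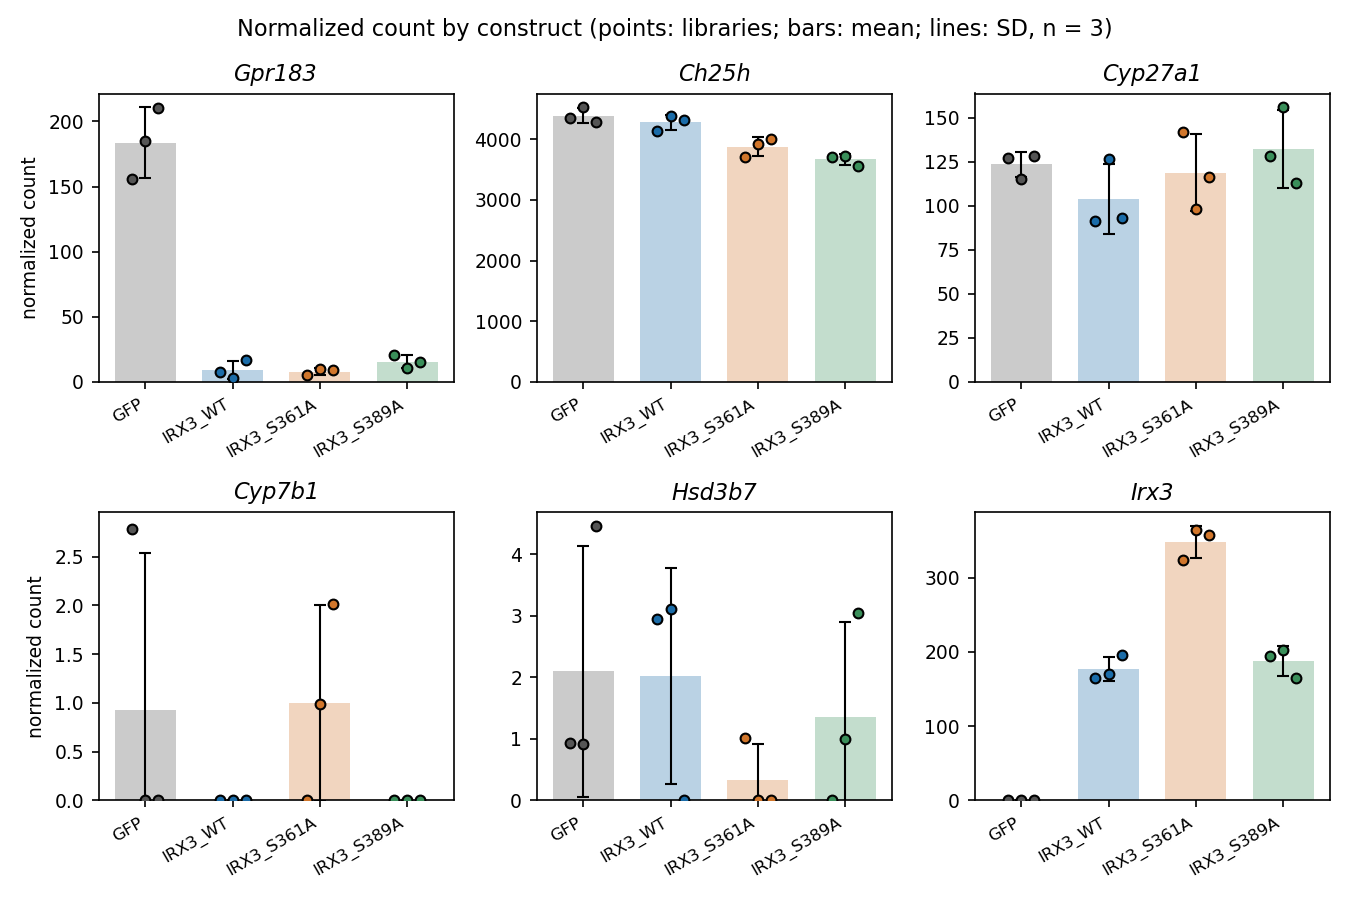
Normalized count (y axis, from 0) of the 5 genes and of Irx3 in each library, by construct (x axis); points are libraries, bars are means and lines are the SD of 3 libraries. Gpr183 is at 156 to 210 with GFP and at 3.12 to 20.7 in the 9 IRX3 libraries, while Ch25h and Cyp27a1 keep most of their level and Cyp7b1 and Hsd3b7 are near 0.

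The log2 difference of Gpr183 from GFP was -4.40 with IRX3_WT and -4.39 with IRX3_S361A, with SE 0.39 in each. With IRX3_S389A it was -3.50 (SE 0.39). By size it was the lowest difference of all 13369 tested genes in the first and second of these comparisons and the 4th lowest in the third. Gpr183 was selected on the first comparison and all share the GFP libraries, so these ranks describe that choice and are no separate support. As a ratio of means, Gpr183 was 19.6-fold lower with IRX3_WT, 22.9-fold lower with IRX3_S361A and 11.7-fold lower with IRX3_S389A. Behind these levels stand 605 reads in the GFP group and 26, 24 and 46 in the IRX3_WT, IRX3_S361A and IRX3_S389A groups. The pooled IRX3_WT level had an exact 95% Poisson interval of 5.94 to 13.3 normalized counts, which covers counting error only. In bulk RNA, fewer cells with the transcript and less transcript per cell cannot be told apart.

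Order of levels was GFP, then IRX3_S389A, IRX3_WT and IRX3_S361A. The ranges of IRX3_S389A and IRX3_WT overlapped, and so did those of IRX3_WT and IRX3_S361A. Neither serine substitution returned Gpr183 to the GFP range. Against IRX3_WT, the differences were 0.00 (SE 0.39) for IRX3_S361A and 0.90 (SE 0.39) for IRX3_S389A. The sign for IRX3_S361A turned with the setting, to -0.19 with DESeq2 on recovered reads, and leaving out IRX3_WT replicate 2 or 3 moved it to -0.54 or 0.53. For IRX3_S389A the same omissions gave 0.35 and 1.42. IRX3_S389A against IRX3_S361A was the comparison whose means used none of the libraries behind the choice of Gpr183. There the 3 IRX3_S389A libraries were all above the 3 IRX3_S361A libraries, by 0.89 (SE 0.39, 95% interval 0.00 to 1.78). The difference did not pass the test over all genes (limma adjusted p = 0.155), where 10.2% of tested genes were called, 7.00% higher and 3.16% lower. The SE, interval and test drew their spread from all 12 libraries, those of GFP and IRX3_WT included. Without IRX3_WT replicate 2 or 3 the limma adjusted p was 0.0688 or 0.0864, and with only the groups compared it was 0.218.

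The genes around Gpr183 did not share its fall. Gpr183 (chr14:121952551-121965195, minus strand, GRCm38) lies inside 1 intron of Ubac2, a gene of a membrane protein of the endoplasmic reticulum on the opposite strand, and their exons do not overlap. Gpr18, another G protein-coupled receptor gene, lies 36.8 kb away in the direction of lower coordinates. Gpr18 stood at 516, 528 and 513 normalized counts in the GFP libraries and at 877, 814 and 817 in the IRX3_WT libraries. With IRX3_S361A it was at 680, 790 and 664, and with IRX3_S389A at 603, 632 and 643. Every IRX3 library was above every GFP library, the reverse of Gpr183.

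**Figure D2:**
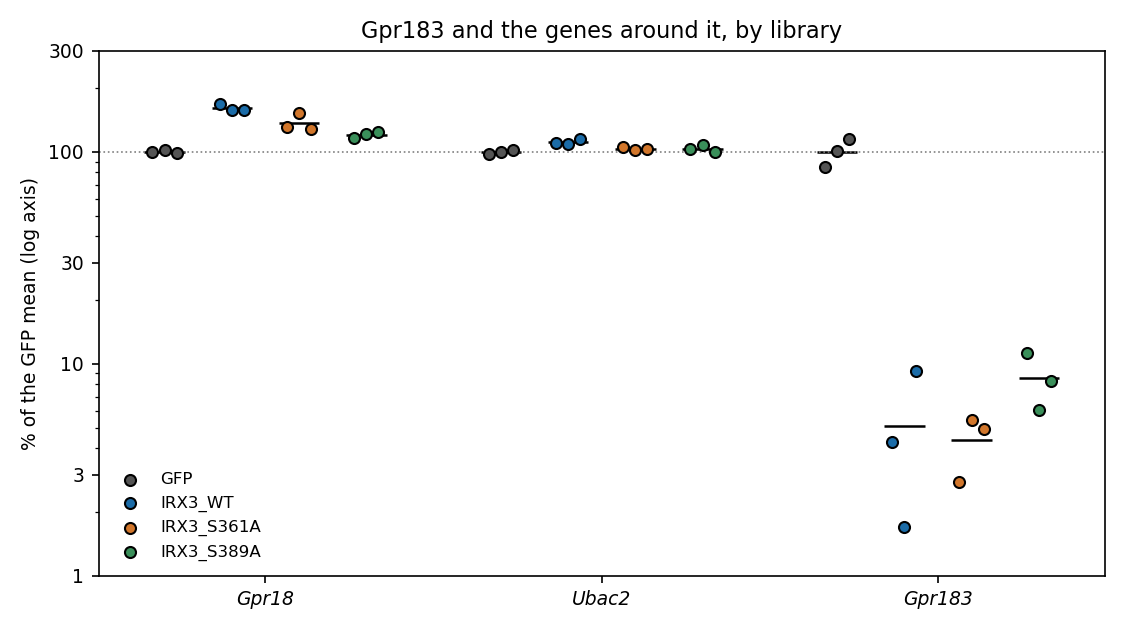
Level of Gpr18, Ubac2 and Gpr183 in each library as a percentage of the mean of the GFP libraries (y axis, log scale), by gene (x axis) and construct (colour); horizontal lines are means of 3 libraries. Gpr183 falls to means of 4.36% to 8.52% while Gpr18 lies above its GFP mean in all 9 IRX3 libraries and Ubac2 stays close to 100%.

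Gpr18 rose by 0.69 with IRX3_WT (SE 0.07, limma adjusted p = 8.63e-11) and by 0.45 with IRX3_S361A (adjusted p = 1.72e-06). With IRX3_S389A it rose by 0.27 (adjusted p = 0.0016), a call lost with equal library totals (0.10, adjusted p = 0.212). It was lower with IRX3_S389A than with IRX3_WT by a difference of -0.42 (adjusted p = 2.11e-05). With IRX3_S361A it was lower than with IRX3_WT by -0.24 (adjusted p = 0.0131), a call lost with equal library totals (adjusted p = 0.0695) and without IRX3_S361A replicate 1 (0.0728) or 3 (0.104) or IRX3_WT replicate 1 (0.0872). Ubac2 was at 808 ± 21.6 (SD, n = 3) with GFP, 897 ± 24.4 with IRX3_WT, 838 ± 17.7 with IRX3_S361A and 836 ± 32.4 with IRX3_S389A. Its difference of 0.15 between IRX3_WT and GFP (adjusted p = 0.0351) became -0.03 with equal library totals and did not pass without GFP replicate 1 (adjusted p = 0.122) or 2 (0.069) or IRX3_WT replicate 1 (0.0604) or 3 (0.117). The nearest gene on the other side outside Ubac2, Timm8a2, averaged at most 2.04 normalized counts in any group.

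Gpr183 is known above all from lymphocytes, and markers of B cells were at or near 0. Of 8 B cell markers none passed the filter on low values. Fcer2a and Blk were at 0 in all 12 libraries. The summed B cell level was 8.29 to 21.3 in the GFP libraries, 3.94 to 12.5 with IRX3_WT, 1.01 to 5.96 with IRX3_S361A and 6.04 to 13.4 with IRX3_S389A, against 156 to 210 for Gpr183 alone in GFP. Of the 8 T and NK cell markers 3 passed the filter (Cd4, Klrb1c and Il7r). Their sum was 1781 to 1846 with GFP, 1115 to 1214 with IRX3_WT, 1256 to 1366 with IRX3_S361A and 1428 to 1582 with IRX3_S389A, most of it Il7r, which some macrophages also express, while Cd3e stayed at or under 1.86. The dendritic cell markers summed to 124 to 152 with GFP, 144 to 166 with IRX3_WT, 137 to 147 with IRX3_S361A and 143 to 183 with IRX3_S389A, most of it Xcr1, and Flt3 stayed at or under 3.68. Neutrophil markers summed to 23.2 to 35.3 with GFP, 41.0 to 63.3 with IRX3_WT, 27.3 to 49.7 with IRX3_S361A and 31.5 to 49.3 with IRX3_S389A. Eosinophil and mast cell markers summed to 261 to 271 with GFP, 236 to 248 with IRX3_WT, 203 to 256 with IRX3_S361A and 209 to 264 with IRX3_S389A. Stromal markers, mainly Pdgfrb, summed to 117 to 167 with GFP, 285 to 299 with IRX3_WT, 181 to 253 with IRX3_S361A and 248 to 277 with IRX3_S389A. The GFP and IRX3_WT ranges of the T and NK cell, neutrophil, eosinophil and mast cell, and stromal sums did not overlap. Those of the macrophage sum, 368308 to 378793 with GFP and 396839 to 401163 with IRX3_WT, did not overlap either. In that comparison 39.6% of all tested genes were called, and a sum that rests on few genes is no measure of cell content. The part of any of these cells in the Gpr183 values was not tested.

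Genes whose levels followed Gpr183 most closely over the 12 libraries moved far less than it did. Among 9715 tested genes with a mean of at least 50, the highest Pearson correlations were those of Mtmr10 (0.98), Peak1 (0.97), Tlr13 (0.96), Zfp652 (0.96) and Ankrd28 (0.96). The 12 points come from 4 groups and share the step between GFP and IRX3, so these values describe that step. Mtmr10, of the myotubularin family, kept 57.2% of its GFP mean with IRX3_WT, 58.7% with IRX3_S361A and 62.8% with IRX3_S389A. Tlr13, a Toll-like receptor for bacterial ribosomal RNA, kept 60.3%, 61.9% and 70.5% in the same order. Gpr183 itself kept under 9% in each. Because Gpr183 was selected for its fall with IRX3_WT and all constructs share the GFP libraries, this contrast in size describes that choice.

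Ch25h, the enzyme that makes the precursor of the Gpr183 ligand, was by far the most abundant of the 5 genes. Its mean over all libraries was 503 TPM (a share of all transcripts corrected for exon length, computed here), the 312th highest of 55141 genes, against 11.8 TPM for Gpr183 and 10.6 TPM for Cyp27a1 in the GFP group. In normalized counts, Ch25h was at 4354, 4528 and 4283 in the GFP libraries and at 4141, 4381 and 4313 in the IRX3_WT libraries. It was at 3705, 3922 and 4004 with IRX3_S361A and at 3713, 3728 and 3560 with IRX3_S389A. The GFP and IRX3_WT ranges overlapped, and all 6 libraries of the mutants lay below all 6 of GFP and IRX3_WT.

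**Figure D3:**
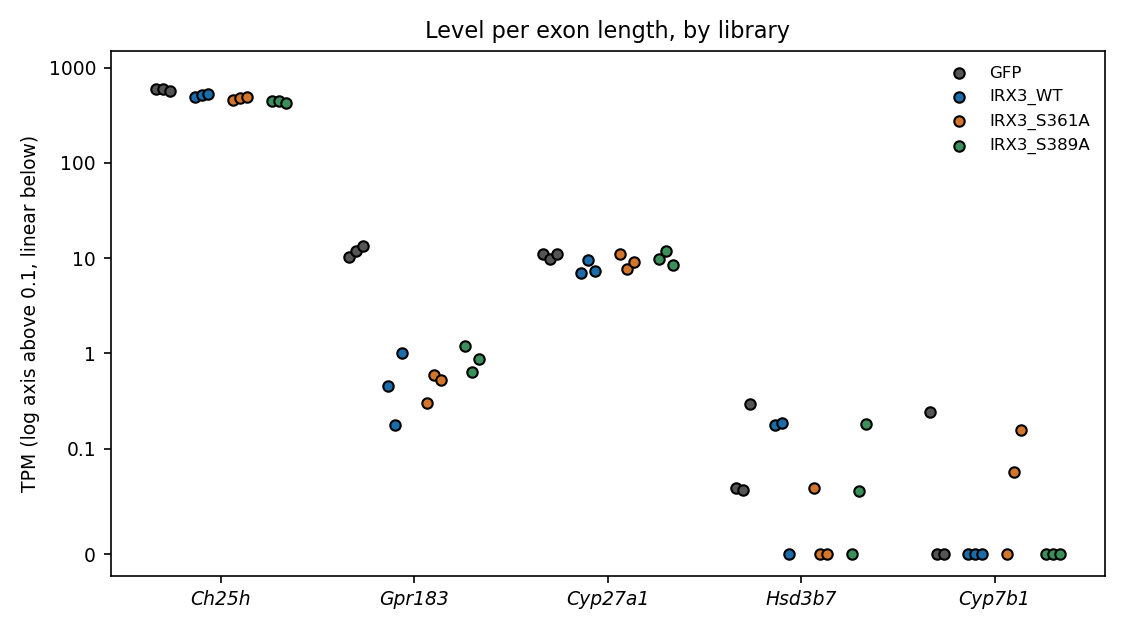
Level per exon length of the 5 genes in each library, in TPM (y axis, logarithmic above 0.1 and linear below), by gene (x axis) and construct (colour). Ch25h lies at 421 to 599 TPM in all libraries, Gpr183 drops from about the level of Cyp27a1 with GFP to near 1 TPM or below it with IRX3, and Hsd3b7 and Cyp7b1 stay under 0.3 TPM.

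Over the 4 groups, Ch25h differed beyond the spread between libraries (limma moderated F, adjusted p = 2.04e-06), as did 44.2% of all tested genes. Between IRX3_WT and GFP, where 39.6% of tested genes were called, its difference was -0.04 (SE 0.04, 95% interval -0.13 to 0.06, limma adjusted p = 0.513). With equal library totals that difference became -0.21 (adjusted p = 3.86e-05). Ch25h was lower with IRX3_S389A than with IRX3_WT by -0.22 (SE 0.04, adjusted p = 0.000108), and this held with equal library totals (-0.21, adjusted p = 0.000182). It was lower with IRX3_S361A than with IRX3_WT by -0.14 (SE 0.04, adjusted p = 0.0119). The latter did not pass with equal library totals (-0.08, adjusted p = 0.179), without IRX3_WT replicate 2 (adjusted p = 0.0549) or without IRX3_S361A replicate 1 (adjusted p = 0.0991). Ch25h was the 1 of 2 tested enzymes called in each of these mutant comparisons, against a background of 15.5% of tested genes (9.07% lower) for IRX3_S361A against IRX3_WT and 15.3% (7.08% lower) for IRX3_S389A against IRX3_WT.

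Against GFP, Ch25h fell by 0.18 with IRX3_S361A (adjusted p = 0.000727) and by 0.26 with IRX3_S389A (adjusted p = 2.1e-06). Both calls held in every alternative run, including each library left out, and the backgrounds were 25.9% (10.9% lower) and 35.0% (16.2% lower) of tested genes called. The means of the mutants were 88.3% and 83.6% of the GFP mean. Between the mutants the difference was -0.08 (95% interval -0.17 to 0.01, adjusted p = 0.247), and it passed only with equal library totals (-0.14, adjusted p = 0.0226). Ch25h is a gene of 1 exon (chr19:34473778-34475164, minus strand, GRCm38), and 11.5% of its bases are also exon of Gm26902 on the opposite strand, whose group means were 29.2 to 34.5 normalized counts.

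A list of interferon genes and of feedback genes linked to Ch25h was mostly higher with each IRX3 construct than with GFP, where Ch25h was lower with the mutants. The list held 20 genes, all tested: components and targets of interferon signalling, which is known to induce Ch25h, and Atf3, known as a repressor of Ch25h. Against GFP, 17 rose and 0 fell with IRX3_WT, 18 rose and 0 fell with IRX3_S361A, and 19 rose and 0 fell with IRX3_S389A, beside 21.0%, 14.9% and 18.8% of all tested genes called higher. The median differences of the list were 0.35, 0.27 and 0.65, against medians of -0.01, 0.00 and -0.01 over all tested genes. With equal library totals the medians were 0.17, 0.16 and 0.48, the counts that rose were 13, 14 and 17, and those that fell were 2, 0 and 1. These comparisons share the GFP libraries. Whether any of these genes acted on Ch25h in these cells was not tested.

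**Figure D4:**
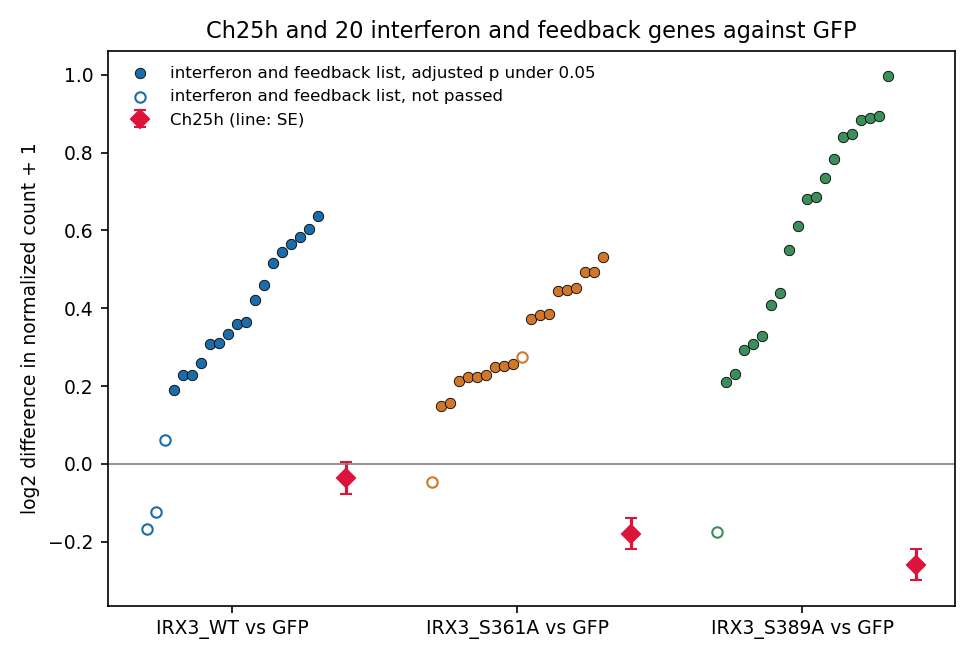
Log2 difference from GFP (y axis) of 20 interferon and feedback genes (circles, filled where the adjusted p was under 0.05) and of Ch25h (diamonds, with the SE) for each IRX3 construct (x axis). Most circles lie above 0 for all constructs, with medians of 0.35, 0.27 and 0.65, while Ch25h lies at -0.04, -0.18 and -0.26.

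Examples with IRX3_WT against GFP were Oasl1 (0.54), Irf1 (0.58), Ifit2 (0.52) and Isg15 (0.46), of which Irf1 encodes a transcription factor and the others are interferon-induced genes. Between IRX3_S389A and IRX3_WT, 14 rose and 0 fell, beside 8.21% of tested genes called higher. Among them, Irf7, the master regulator of type I interferon genes, rose by 0.35 and Ifit2 by 0.37. Against GFP, Atf3 rose by 0.31 in the IRX3_WT libraries, 0.22 in the IRX3_S361A libraries and 0.61 in the IRX3_S389A libraries (0.13, 0.11 and 0.44 with equal library totals). It rose by 0.30 between IRX3_WT and IRX3_S389A. From IRX3_WT to IRX3_S361A, Atf3 moved by -0.14 to -0.04 with each library left out in turn. Between IRX3_S361A and IRX3_WT, 1 rose and 4 fell, beside 6.43% and 9.07% of tested genes called higher and lower, and Ifit2 fell by 0.26 (adjusted p = 4.02e-05). With equal library totals 2 rose and 3 fell there. Ifnb1, the interferon gene itself, averaged 26.7 ± 6.44 normalized counts with GFP, 24.04 ± 8.06 with IRX3_WT, 32.1 ± 4.31 with IRX3_S361A and 49.98 ± 8.37 with IRX3_S389A (SD, n = 3). It was higher with IRX3_S389A than with IRX3_WT by 1.06 (SE 0.27, adjusted p = 0.00494), a gene singled out after its values had been seen.

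The genes that followed Ch25h most closely over the 12 libraries were Yaf2 (Pearson r = 0.95), Trim59 (0.93), Poc5 (0.92), Rnase4 (0.90) and Id1 (0.89). Each had its lowest group mean with IRX3_S389A, as Ch25h did. They were picked for their correlation with Ch25h over these libraries, so a shared lowest group largely follows from that choice. Rnase4, a secreted ribonuclease gene, averaged 772 ± 4.69 normalized counts with GFP, 710 ± 37.0 with IRX3_WT, 603 ± 35.7 with IRX3_S361A and 490 ± 11.8 with IRX3_S389A. The correlation of Ch25h with Gpr183 was 0.48 over the same 12 libraries, and that of Gpr18 with Gpr183 was -0.82. Both values include the step between GFP and IRX3 on which Gpr183 was selected.

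Lipa, the gene beside Ch25h at a distance of 17.2 kb, encodes the lysosomal lipase that frees cholesterol from its esters, and its pattern differed from that of Ch25h. It averaged 12680 ± 268 normalized counts with GFP, 10185 ± 741 with IRX3_WT, 10986 ± 476 with IRX3_S361A and 12883 ± 453 with IRX3_S389A. Lipa fell by 0.32 with IRX3_WT against GFP (adjusted p = 1.88e-07) and rose by 0.34 with IRX3_S389A against IRX3_WT (adjusted p = 4.7e-07). On the other side, 146.0 kb away, the death receptor gene Fas rose by 0.53 with IRX3_WT against GFP (adjusted p = 8.05e-11).

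Cyp27a1 was expressed at a moderate level, and no comparison of its levels between constructs passed the test with all libraries and the deposited scaling. The GFP libraries held 127, 115 and 128 normalized counts, and the IRX3_WT libraries 91.6, 127 and 93.3. The IRX3_S361A libraries held 142, 98.4 and 117, and the IRX3_S389A libraries 128, 156 and 113. The ranges of all 4 groups overlapped. The difference between IRX3_WT and GFP was -0.26 (SE 0.15, 95% interval -0.62 to 0.10, limma adjusted p = 0.185), and that between IRX3_S389A and IRX3_WT was 0.35 (95% interval -0.01 to 0.71, adjusted p = 0.131). IRX3_WT replicate 2 bore on both: without it they were -0.41 (adjusted p = 0.0488) and 0.50 (adjusted p = 0.0372). With equal library totals the first was -0.44 (adjusted p = 0.0175). IRX3_S361A differed from IRX3_WT by 0.19 (95% interval -0.16 to 0.55, adjusted p = 0.464), and over the 4 groups the moderated F gave an adjusted p of 0.243.

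Cyp27a1 (chr1:74713574-74737892, plus strand, GRCm38) shares no exon base with another gene. The genes closest to it in pattern were Tbxas1 (Pearson r = 0.88), Gss (0.88), Ndufs1 (0.86), Ftl1 (0.85) and Commd1 (0.85). Its neighbour Ttll4, a tubulin-modifying enzyme gene 9.8 kb away, averaged 315 ± 37.5 normalized counts with GFP and 208 ± 16.7 with IRX3_WT.

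Cyp7b1, which completes the ligand, was hardly detected. It had 3 reads in GFP replicate 1 and none in the other GFP libraries, 1 read in IRX3_S361A replicate 2 and 2 in IRX3_S361A replicate 3. It had 0 reads in the 3 libraries of IRX3_WT and in the 3 of IRX3_S389A, which allows a pooled level of up to 1.29 and 1.25 normalized counts (exact 95% Poisson interval, counting error only). No difference between constructs was detectable at this depth.

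Hsd3b7, which inactivates the ligand, had 7 reads in the GFP group, 6 with IRX3_WT, 1 with IRX3_S361A and 4 with IRX3_S389A, and in no library more than 5. Its level is uncertain, because 99.2% of its exon bases (chr7:127800604-127803802, plus strand, GRCm38) are also exon of another gene. On the same strand 62.0% belong to Gm49388, annotated as running on from the adjacent gene and listed at 0 in all 12 libraries, and 62.4% are opposite to 9430064I24Rik, which averaged at most 1.70 normalized counts. Among protein-coding genes with at least 95% of exon bases shared with others, 73.9% of 241 were at 0 in every library. This was so for 12.9% of 6301 genes that shared a smaller part and for 33.5% of 15355 that shared none. How reads over shared exons were counted is not given in the sources used here, and its part in the Hsd3b7 value was not tested.

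Other enzymes of oxysterol and bile acid metabolism included several that were lower with IRX3_WT. Of 24 listed genes 13 were tested, and 0 rose and 7 fell against GFP, beside 18.6% of all tested genes called lower, with a median of -0.21 against -0.01 (0 rose and 8 fell, with a median of -0.39, with equal library totals). Dhcr7, a reductase of late cholesterol synthesis rather than a maker of oxysterols, fell by 1.14 (adjusted p = 2.76e-08). Por, the electron donor of microsomal cytochromes P450, fell by 0.39 (adjusted p = 7.06e-09), and Soat1, which esterifies cholesterol and oxysterols, fell by 0.24 (adjusted p = 3.15e-05). Ebp, a sterol isomerase gene, was higher with IRX3_S361A than with IRX3_WT (0.36, adjusted p = 0.00106). Cyp7a1, Cyp8b1, Cyp3a11 and Akr1d1, enzymes of bile acid synthesis and steroid breakdown in liver, were at 0 in every library.

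Of 25 listed genes for proteins that sense or bind oxysterols 21 were tested. With IRX3_WT against GFP, 4 rose and 6 fell, beside 21.0% and 18.6% of all tested genes, with a median of -0.08 (1 rose and 16 fell, with a median of -0.26, with equal library totals). Osbpl8, an oxysterol-binding protein of the endoplasmic reticulum, fell by 0.27 (adjusted p = 1.05e-07), and Npc1, which exports cholesterol from lysosomes, fell by 0.29 (adjusted p = 5.31e-06). Osbpl3 rose by 0.35 (adjusted p = 7.57e-06). With IRX3_S389A against IRX3_WT, 4 rose and 0 fell, beside 8.21% and 7.08% of all tested genes. Insig1, the oxysterol-binding brake on SREBP processing, rose by 0.54 (adjusted p = 3.55e-08) and Srebf2, the master regulator of cholesterol synthesis, by 0.22 (adjusted p = 6.34e-05). With IRX3_S361A against IRX3_WT, 2 rose and 1 fell, beside 6.43% and 9.07% of all tested genes, and 9 rose and 1 fell with equal library totals. Nr1h3, the oxysterol-activated nuclear receptor LXR alpha, averaged 2320 ± 132 normalized counts with GFP and 2269 ± 83.9 with IRX3_WT.

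Of 20 genes of G protein signalling listed as possible partners of Gpr183, 19 passed the filter. Whether each acts on the signal of Gpr183 was not tested. With IRX3_WT against GFP, 3 rose and 7 fell, beside 21.0% and 18.6% of all tested genes. The median was -0.04 (0 rose and 14 fell, with a median of -0.22, with equal library totals). Gnai2, the main inhibitory G protein subunit of leukocytes, was at 17972 ± 277 normalized counts with GFP and 17680 ± 478 with IRX3_WT. Rgs2, which switches off G proteins, fell by 1.42 (adjusted p = 1.26e-15), and the arrestin gene Arrb1 fell by 0.49 (adjusted p = 2.03e-10). Gng2, a G protein gamma subunit, fell by 0.41 (adjusted p = 1.79e-07). With IRX3_S389A against IRX3_WT, 5 rose and 1 fell, beside 8.21% and 7.08% of all tested genes, among them Rgs2, which rose by 0.68 (adjusted p = 2.58e-07). With IRX3_S361A against IRX3_WT, 3 rose and 2 fell, beside 6.43% and 9.07% of all tested genes (6 rose and 1 fell with equal library totals), and Rgs1, a regulator of the same family, fell by 0.41 (adjusted p = 2.3e-06).

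Other receptors for chemoattractants and lipids changed in both directions. Of 36 listed, 35 were found and 28 tested. With IRX3_WT against GFP, 12 rose, Gpr18 among them, and 11 fell, beside 21.0% and 18.6% of all tested genes, with a median of -0.08 (10 rose and 14 fell, with a median of -0.26, with equal library totals). The formyl peptide receptors Fpr1 and Fpr2 rose by 0.78 (adjusted p = 2.94e-19) and 0.71 (adjusted p = 7.95e-18), and Cmklr1, the chemerin receptor, rose by 0.63 (adjusted p = 6.14e-14). S1pr1, the sphingosine phosphate receptor that guides lymphocyte exit, fell by 2.31 (adjusted p = 9.95e-15), from 258 ± 30.2 normalized counts to 51.5 ± 8.28 (SD, n = 3). Lpar5, a lysophosphatidic acid receptor, and Cxcr4, the CXCL12 receptor, were picked out after their values had been seen. Lpar5 fell by 3.50 (SE 0.36, adjusted p = 3e-10) and Cxcr4 by 2.21 (SE 0.19, adjusted p = 4.57e-12).

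S1pr1 was also below its GFP level with the mutants, by -1.69 (adjusted p = 1.12e-10) with IRX3_S361A and -1.98 (adjusted p = 8.44e-13) with IRX3_S389A, at 79.3 ± 6.43 normalized counts with IRX3_S361A and 64.8 ± 9.32 with IRX3_S389A. It was higher with IRX3_S361A than with IRX3_WT by 0.62 (adjusted p = 0.006). Fpr1 was lower with both mutants than with IRX3_WT, by -0.63 with IRX3_S361A (adjusted p = 3e-15) and by -0.53 with IRX3_S389A (adjusted p = 5.93e-13). Over the list, 5 rose and 10 fell with IRX3_S361A against IRX3_WT, beside 6.43% and 9.07% of all tested genes (8 rose and 7 fell with equal library totals). With IRX3_S389A against IRX3_WT, 5 rose and 6 fell, beside 8.21% and 7.08% (5 and 6 with equal library totals). The medians were -0.01 (0.05 with equal library totals) and 0.11, against 0.01 and 0.00 over all tested genes.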

How the data were processed

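The authors deposited a table of 12 columns named for the libraries, and the submitters' processing notes name the mm10 build, HISAT2 2.1.0, Trimmomatic and StringTie 1.3.5, without saying which step each served. Which program counted reads, with which strand setting and annotation, was not given in the sources used here. In the deposited signal, each gene's count had been divided by a size factor, 1 for each library: in each column 100% of values were whole multiples of 1 step (tolerance 1e-06), and in 3 columns that step lay within 1% of 1. Groups came from the sample titles. Genes were matched to GENCODE (99.5% of 55401 IDs), which gave positions, exon overlaps and the exon lengths behind TPM.

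All 12 libraries entered 1 limma 3.58.1 fit (trend, robust, R 4.3.3) of log2(value + 1) with 1 mean per group and 8 residual degrees of freedom, for genes at 10 or more in at least 3 libraries. P-values were adjusted by Benjamini-Hochberg over 13369 genes, threshold 0.05. The pseudocount understates changes of low genes. The scripts were tested on simulated data. Alternatives were pseudocounts of 0.5 and 5, no filter, edgeR 4.0.16 and DESeq2 1.42.0 on recovered reads, equal library totals, a replicate block, only the groups compared, and each library left out. edgeR called 5271, 2010 and 1906 genes for IRX3_WT against GFP, IRX3_S361A against IRX3_WT and IRX3_S389A against IRX3_WT, where limma called 5288, 2071 and 2043.

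Named genes were the members and Irx3, the nearest protein-coding neighbours, the 5 genes most correlated with each tested member, and up to 4 called members per list and comparison with the smallest p. Not every gene so chosen is named, and some items are not reported here. The members and lists were chosen with earlier results of these data known. Marker lists of neutrophils, stromal cells and eosinophils and mast cells were also summed.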

Additional observations from a re-analysis of the deposited data

How the results depend on the processing

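Over all results and settings, 480 values kept their direction and side of the threshold, or stayed within 1.5 times for counts of genes, while 9 reversed, 5 newly passed and 3 no longer passed. For the untested Gpr183 differences, those kept had the same sign and moved by less than the SD within groups. Some settings, such as leaving out a library of a group not compared, could not change a difference. Unless a value shows it, the cause of a change was not tested. With equal library totals, Ch25h (-0.21, adjusted p = 3.86e-05) and Cyp27a1 (-0.44, adjusted p = 0.0175) passed for IRX3_WT against GFP, Ch25h passed for IRX3_S389A against IRX3_S361A (-0.14) and no longer passed for IRX3_S361A against IRX3_WT (-0.079), and Cyp27a1 for IRX3_S389A against GFP reversed to -0.081. That scaling moved the share of called genes that were higher from 53.0% to 20.2% for IRX3_WT against GFP, 41.5% to 70.6% for IRX3_S361A against IRX3_WT, 57.7% to 24.6% for IRX3_S361A against GFP, 53.8% to 19.8% for IRX3_S389A against GFP and 68.9% to 36.0% for IRX3_S389A against IRX3_S361A. The untested difference of Gpr183 between IRX3_S361A and IRX3_WT, 0.00, became -0.042 with a pseudocount of 5, -0.18 with edgeR and -0.19 with DESeq2. With each library left out in turn, it ranged from -0.54 to 0.53, Ch25h for the same comparison from -0.17 to -0.11, Cyp27a1 for IRX3_WT against GFP from -0.41 to -0.18 and for IRX3_S389A against IRX3_WT from 0.23 to 0.50. Cyp27a1 against GFP ranged from -0.20 to 0.059 for IRX3_S361A and from -0.037 to 0.20 for IRX3_S389A. No pairing by replicate number was seen. Same-numbered libraries of different groups had residual correlations of -0.04 to 0.03 (18 pairs), and differently numbered ones -0.04 to 0.05 (36 pairs). The labels do not say what the numbers stand for, and this check cannot exclude shared mice, cultures or batches. With the replicate block, 5241, 2023 and 1982 genes were called for IRX3_WT against GFP, IRX3_S361A against IRX3_WT and IRX3_S389A against IRX3_WT, and no member's call changed. Without the filter on low values, neither Cyp7b1 nor Hsd3b7 passed in any of the 6 comparisons. Depth limits Gpr183 with IRX3, Cyp7b1 and Hsd3b7, which rest on 46 reads or fewer per group.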
